A study of Homo sapiens with 8 samples.

Results

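ESR1, GREB1, TFF1 and NRIP1 are 4 genes of the estrogen receptor axis, and the binding sites described here are the peaks of glucocorticoid receptor (GR) and progesterone receptor (PR) that lay within 50 kb of their hg19 gene bodies. Of 94404 peaks in the 8 deposited lists, 115 met that rule. They numbered 18 of 18538 for GR after dexamethasone (Dex, a synthetic glucocorticoid), 39 of 28563 for PR in A1-2 cells after R5020 (a synthetic progestin) and 56 of 43398 for PR in MTVL cells after R5020. A further 2 of 221 came from PR in untreated MTVL cells. No peak near the 4 genes was listed for GR after R5020 (of 1198 peaks), GR in untreated A1-2 cells (of 455), PR in untreated A1-2 cells (of 693) or the A1-2 input (of 1338). Peaks of the 7 receptor lists that overlapped by at least 1 bp were joined into sites, which gave 60 sites: 30 near ESR1, 26 near GREB1, 0 near TFF1 and 4 near NRIP1.

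Both lines derive from T47D, a human breast cancer line with luminal features. In T47D A1/2 cells (A1-2 here), which the series describes as a mammary epithelial line holding both receptors, GR was mapped after Dex, after R5020 and without hormone, and PR after R5020 and without hormone. In T47D MTVL WT cells (MTVL here), labelled as the control line, PR was mapped after R5020 and without hormone. All cultures had been kept in medium without phenol red and with charcoal-treated serum and then starved of serum, and each hormone was given at 10 nM for 60 min. The assay was ChIP-seq, in which DNA bound by a protein is pulled down with an antibody and sequenced. GR was precipitated with a mix of 2 antibodies and PR with 1. With a single library for every condition, the spread between replicates cannot be measured and differences are described without p-values. The read depth is unknown, and intervals cover counting error only.

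ESR1 encodes estrogen receptor alpha, the ligand-activated transcription factor that drives proliferation of luminal breast cancer cells. GREB1 is an estrogen-induced gene whose product acts as a cofactor of that receptor, NRIP1 (also called RIP140) encodes a corepressor that binds hormone-loaded nuclear receptors, and TFF1 (also called pS2) encodes a secreted trefoil peptide long used as a readout of estrogen. GR and PR recognise closely related DNA elements, and the progesterone receptor gene is itself induced by estrogen. A peak near a gene is not thereby assigned to it. Within 50 kb of the gene bodies in RefSeq's newer human assembly lie CCDC170 and SYNE1 for ESR1, and E2F6, NTSR2 and LPIN1 for GREB1. For TFF1 they are TFF2, TFF3, TMPRSS3 and UBASH3A. Those gene bodies need not have the same limits as the hg19 bodies used for the peaks.

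**Figure D1:**
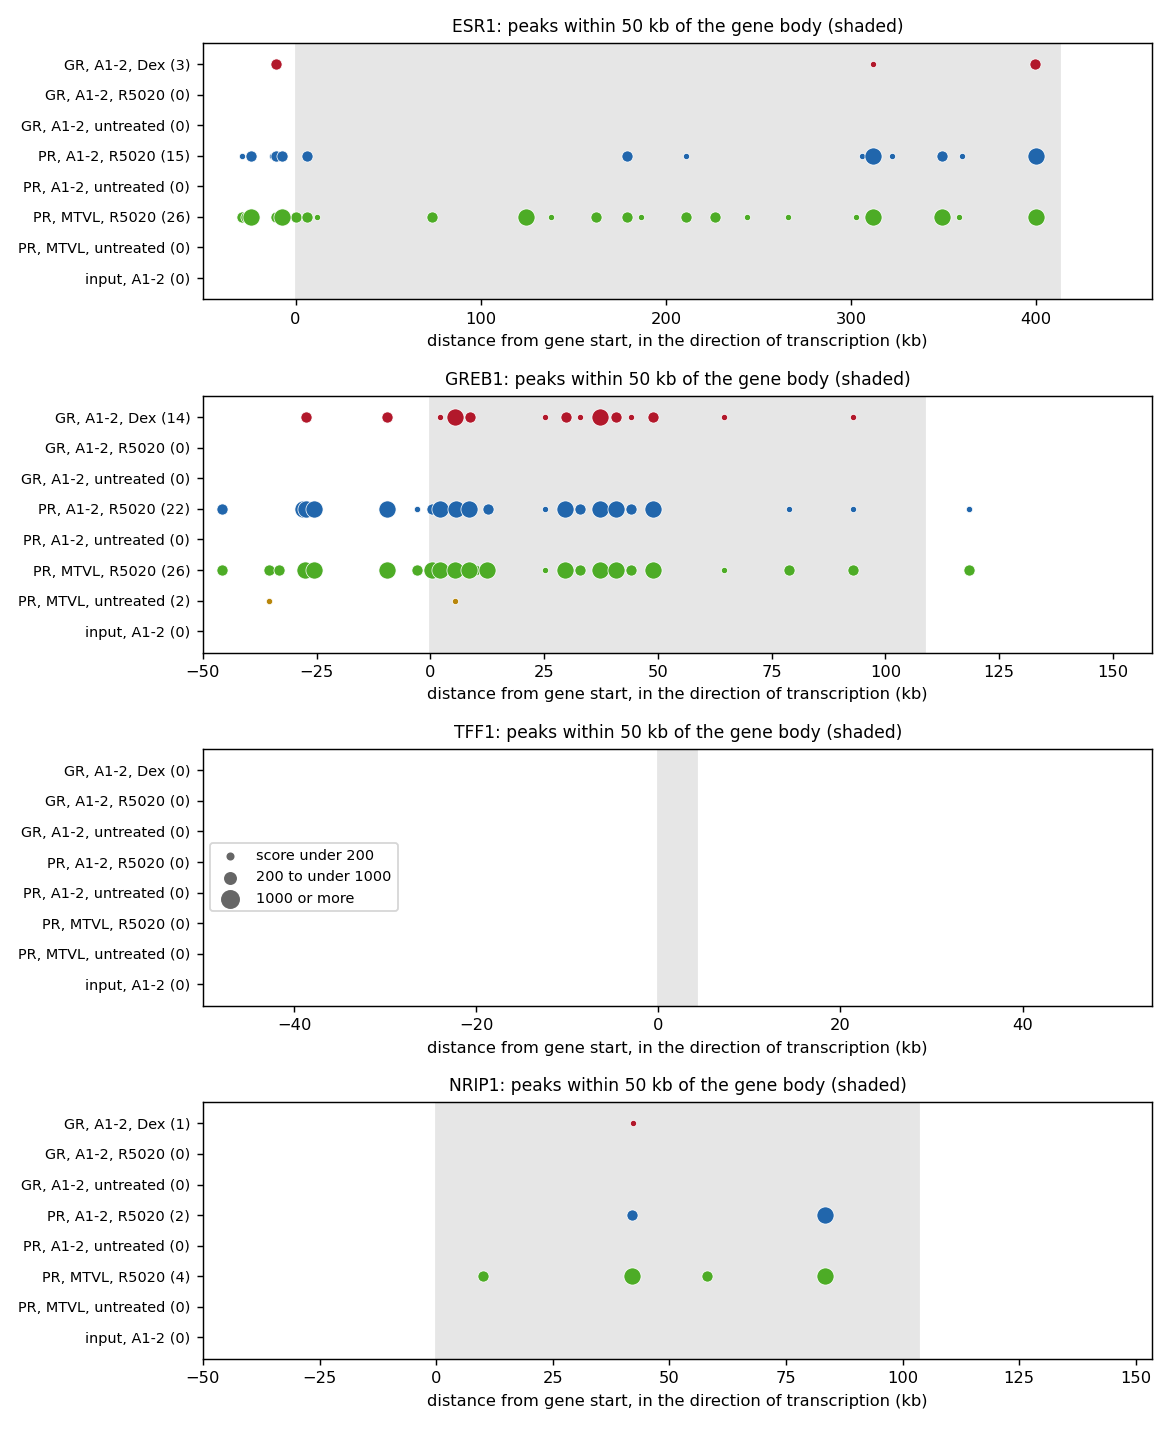
Position of every member peak relative to the start of its gene (kb, positive in the direction of transcription), with 1 row for each of the 8 lists and the number of peaks in brackets; shading marks the gene body and larger points mark higher deposited scores. The GREB1 peaks crowd around and just past the gene start, the ESR1 peaks lie upstream and over the length of the gene, and the TFF1 panel holds no peak.

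ESR1, the receptor gene, lay at chr6:152011631-152424409 (hg19, plus strand), and its window of 513 kb held 3 GR peaks after Dex, 15 PR peaks in A1-2 cells and 26 PR peaks in MTVL cells after R5020. PR peaks were dense there and GR peaks were not. The ESR1 window had 29.3 PR peaks per Mb in A1-2 cells, against 9.61 per Mb over the whole list, and 50.7 per Mb in MTVL cells, against 14.6 over the whole list. GR after Dex had 5.85 peaks per Mb, against 6.26 over its list. Of the 30 ESR1 sites, 8 lay upstream of the gene start, 22 in the gene body and 0 downstream. Neighbouring sites were a median of 8.88 kb apart, and the widest empty stretch, 61.4 kb, followed the sites around the start. That group around the ESR1 start held 10 MTVL PR peaks within a stretch of 50 kb, a number reached by 356 (0.827%) of the 43070 stretches that begin at a peak of that list, and 6 A1-2 PR peaks, reached by 6.97% of stretches. No stretch near ESR1 held more than 1 GR peak. Each such number is the highest among the stretches that begin in the gene's window, set against all single stretches. The percentages therefore make the window look rarer than it is, and they test nothing.

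The 3 ESR1 sites with a GR peak differed in how the receptors scored there. Scores are the authors' own value for each peak, which grows as the peak's p falls, and they rank peaks within 1 list only. The site at chr6:152410862-152411639, near the 3′ end of the gene, had a GR score of 665 (rank 2010 in its list) after Dex, an A1-2 PR score of 3024 (rank 690) and an MTVL PR score of 2466 (rank 3070). At chr6:152323069-152324196, 312 kb into the gene, the GR score was 108 (rank 16897) while the A1-2 PR score was 2316 (rank 1214) and the MTVL PR score was at the ceiling of 3100. The 1202 A1-2 PR peaks of at least that score that had a GR Dex peak had a median GR score of 1052, and 5 of them (0.416%) had a GR score as low as at this site. The site was picked for this comparison after its values were seen, so the share describes it and tests nothing. The site at chr6:152000631-152001270, upstream of the gene, had lower values, with 203 for GR, 313 for PR in A1-2 cells and 358 for PR in MTVL cells.

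The other 27 ESR1 sites were PR-only, meaning a PR peak in either line and no GR peak under any treatment. GR was mapped in A1-2 cells only, so a site called in MTVL cells alone has no GR data from its own line. PR was called in both lines at 8 of them, in A1-2 cells alone at 4 and in MTVL cells alone at 15. The strongest of the 8, at chr6:152360143-152360963, scored 819 in A1-2 cells (rank 4780) and 2057 in MTVL cells (rank 3950). Upstream, the site at chr6:152003961-152004757 scored 473 in A1-2 and 1456 in MTVL cells, and the one at chr6:151987326-151988214 scored 303 in A1-2 and 1390 in MTVL cells. Within the gene, the site at chr6:152190154-152190831 scored 544 in A1-2 and 787 in MTVL cells. The remaining 4 of the 8, at chr6:151982398-151983111, chr6:152017578-152018182, chr6:152222044-152222825 and chr6:152412246-152412959, had A1-2 scores between 128 and 444 and MTVL scores between 244 and 672. The site nearest the gene start, chr6:152011762-152012325, was an MTVL PR peak of 261, and no peak was called there in A1-2 cells. All 4 sites of A1-2 cells alone, at chr6:151998481-151998847, chr6:152317062-152317634, chr6:152333538-152334128 and chr6:152371596-152372004, scored low, between 103.6 and 193. The MTVL sites alone had a median of 186 and reached 1066 at chr6:152135783-152136476, a site picked after its values were seen. Of the 8348 MTVL PR peaks scoring as high or higher, 517 (6.19%) had no A1-2 PR peak.

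GREB1, the estrogen-induced cofactor, lay at chr2:11674242-11782912 (plus strand), and its window of 209 kb was the densest of the 4. It held 14 GR peaks after Dex, 22 PR peaks in A1-2 cells and 26 PR peaks in MTVL cells after R5020. At the mean density of each whole list it would hold 1.31, 2.01 and 3.06. The peaks lay close together: 10 GR peaks after Dex fell within a single stretch of 50 kb, a number reached by 293 (1.59%) of the 18415 stretches that begin at a peak of that list. The A1-2 PR list had 13 in such a stretch, reached by 211 of 28262 (0.747%). The MTVL PR list had 15, reached by 14 of 43070 (0.0325%). In all 3 lists the median stretch held 2 peaks. Here too the highest of the stretches in the gene's window is set against all single stretches, so the percentages overstate rarity and test nothing. Of the 26 GREB1 sites, 7 lay upstream, 18 in the gene body and 1 downstream, with a median of 2.56 kb between neighbours.

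GR after Dex and PR of both lines shared 13 of the GREB1 sites, and 12 of the 14 sites with GR lay in the gene body. The strongest GR site, chr2:11679205-11680281, 5.50 kb past the gene start, scored 1828 for GR (rank 321 of 18415), with both PR lists at 3100. A PR peak of untreated MTVL cells also lay there, with a score of 168 (rank 79 of 219). The site at chr2:11711005-11711945 was nearly as strong, with a GR score of 1796 (rank 335) and both PR lists again at 3100. At chr2:11681898-11683368 the GR score was 816, the A1-2 PR score 2160 and the MTVL PR score 3100. The site at chr2:11714508-11715475 scored 677 for GR, 3009 for PR in A1-2 cells and 3100 for PR in MTVL cells. These 4 sites, within 40.7 kb of the gene start, were the highest for GR, and GR and PR were high together at each. At chr2:11703280-11704578 the GR score was 396, with 1810 for PR in A1-2 and 2181 in MTVL cells. Upstream of the gene, at chr2:11664349-11665189, GR scored 329 and PR 1561 in A1-2 cells, with MTVL PR at 3111, in the range of the ceiling. At chr2:11645872-11647320, also upstream, GR scored 322 and PR 1528 in A1-2 and 3100 in MTVL cells. Another GREB1 site with GR, chr2:11738532-11739087, had a GR score of 125 and an MTVL PR score of 124, and no A1-2 PR peak.

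The other 12 GREB1 sites were PR-only, 8 of them called in both lines and 4 in MTVL cells alone. The strongest, chr2:11648298-11649007, 25.6 kb upstream of the gene start, scored 2598 in A1-2 cells (rank 962) and 3100 in MTVL cells. Of the 962 A1-2 PR peaks with that score or more, 5 (0.520%) had no GR Dex peak, this one among them. This share, like those given below for other PR-only sites, is a description of a site picked for having a strong PR peak without GR. At chr2:11686353-11687178 the A1-2 score was 777 and the MTVL score 2834, and 534 (10.6%) of the 5054 A1-2 PR peaks as strong lacked a GR peak. The gene start itself carried a PR-only site, chr2:11674199-11674956, with a score of 280 in A1-2 and 1183 in MTVL cells. The farthest upstream site, chr2:11628225-11628791, had 680 in A1-2 and 676 in MTVL cells. The other 4 called in both lines, at chr2:11670924-11671537, chr2:11702108-11702757, chr2:11752826-11753454 and chr2:11792200-11792857, had A1-2 scores between 102 and 174 and MTVL scores between 147 and 240. At chr2:11638341-11639302 an MTVL PR peak of 299 after R5020 lay with the second peak of untreated MTVL cells, 105 (rank 206 of 219), and no peak was called in A1-2 cells.

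NRIP1, the corepressor gene, lay at chr21:16333556-16437126 (minus strand) and had 4 sites, all in the gene body. Its window held 1 GR peak after Dex, 2 PR peaks in A1-2 cells and 4 PR peaks in MTVL cells, against 1.27, 1.96 and 2.98 at the mean densities of the lists. The site at chr21:16394709-16395438 carried the GR peak, with a score of 102, and PR scores of 263 in A1-2 and 1089 in MTVL cells. The strongest A1-2 PR site, chr21:16353361-16354124, was PR-only, with 1195 in A1-2 and 1916 in MTVL cells, and 164 (5.19%) of the 3161 A1-2 PR peaks as strong lacked a GR peak. The other 2 sites were called for PR in MTVL cells alone, with 371 at chr21:16426837-16427464, the site nearest the gene start, and 427 at chr21:16378624-16379475.

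TFF1, the secreted peptide gene at chr21:43782391-43786644 (minus strand), had no peak within 50 kb in any of the 8 lists. The gene is short, so its window of 104.3 kb would hold 0.653 GR peaks after Dex, 1.00 PR peaks in A1-2 cells and 1.53 in MTVL cells at the mean densities of the lists. Little can therefore be read from an empty window of that length. The nearest PR peaks in both lines lay downstream and overlapped each other: chr21:43682743-43683360 in A1-2 cells, 99.0 kb away with a score of 132, and chr21:43682707-43683607 in MTVL cells, 98.8 kb away with a score of 683. The nearest GR peak after Dex, chr21:43965280-43965958, was 179 kb upstream and scored 129.

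**Figure D2:**
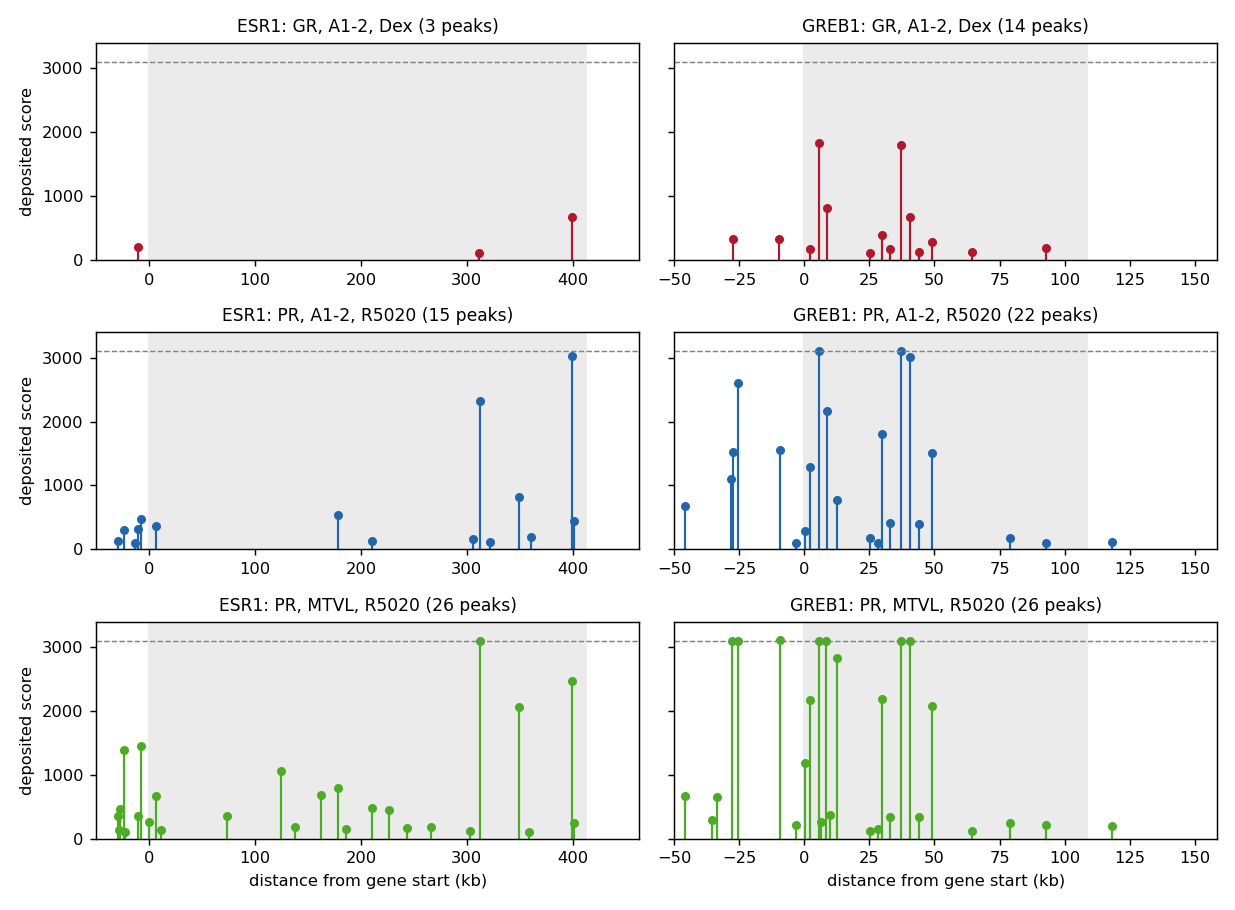
Deposited score of each member peak (vertical, linear axis from 0) against its distance from the gene start in kb, for ESR1 (left) and GREB1 (right), in the GR Dex, A1-2 PR and MTVL PR lists from top to bottom. Shading marks the gene body and the dashed line the ceiling of 3100; the 2 GR scores above 1000 both belong to GREB1, where PR scores of both lines reach the ceiling.

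The share of strong peaks was read against each whole list. A score of 1000, taken as a p of 1e-100, was reached by 2 of 18 GR peaks (11.1%) near the 4 genes, against 5.84% of all GR Dex peaks. It was reached by 14 of 39 A1-2 PR peaks (35.9%), against 13.7% of the list, and by 20 of 56 MTVL PR peaks (35.7%), against 20.5%. GREB1 held most of them, with 2 of the GR, 11 of the A1-2 PR and 12 of the MTVL PR peaks, and ESR1 held 0, 2 and 6. The median score near GREB1 was 301 for GR, 940 for A1-2 PR and 664 for MTVL PR, and near ESR1 it was 203, 313 and 361. Over the whole lists it was 193, 244 and 313.

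GR and PR were compared in A1-2 cells, each after its own ligand. Of the 18 GR peaks, 17 (94.4%, exact 95% interval 72.7 to 99.9) overlapped an A1-2 PR peak, against 73.8% of all GR Dex peaks, and the exception was the weak GREB1 site at chr2:11738532-11739087. In the other direction, 17 of 39 A1-2 PR peaks (43.6%, 27.8 to 60.4) overlapped a GR peak, against 48.2% of that list. The genes differed in this share: it was 3 of 15 (20.0%, 4.33 to 48.1) near ESR1 and 13 of 22 (59.1%, 36.4 to 79.3) near GREB1, with overlapping intervals. The share followed the PR score. Near the 4 genes it was 2 of 12 PR peaks (16.7%) scoring under 200, 4 of 13 (30.8%) from 200 to under 1000 and 11 of 14 (78.6%) at 1000 or more. Over the whole list the same bands had 25.8%, 55.3% and 93.0%, which were higher in each band but lay inside the exact intervals of the members.

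**Figure D3:**
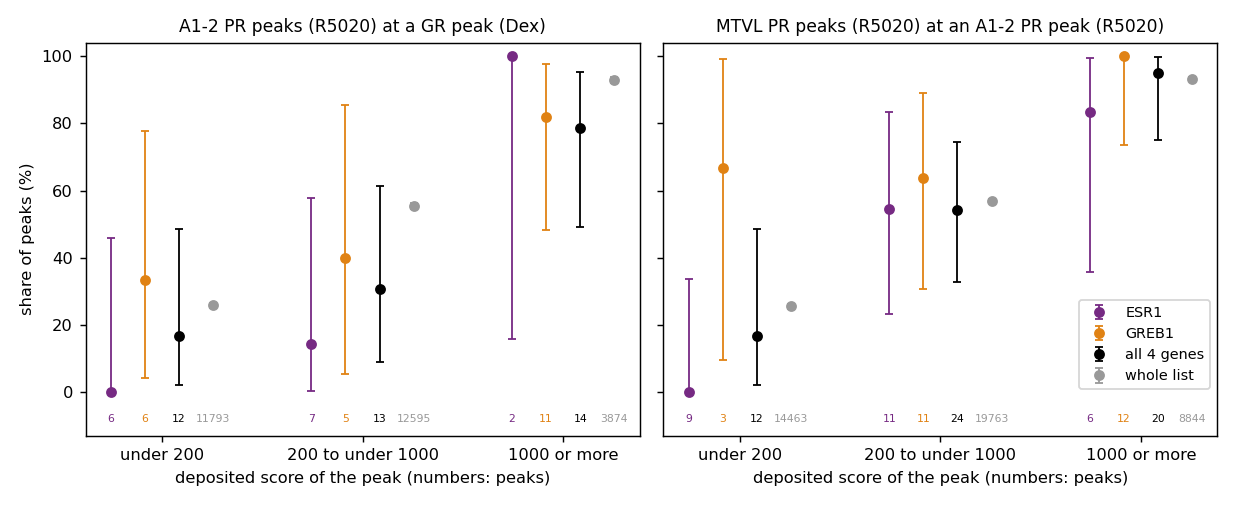
Share of PR peaks (%) with an overlapping peak in the other list, in 3 bands of deposited score, for ESR1, GREB1, all 4 genes and the whole list, with exact 95% intervals and the number of peaks under each point. Left, A1-2 PR peaks at a GR Dex peak, and right, MTVL PR peaks at an A1-2 PR peak; in both panels the shares for the 4 genes climb with the score, as they do over the whole list.

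PR-only sites made up 42 of the 60 sites (70%, exact 95% interval 56.8 to 81.2), against 69.4% of all sites with a PR peak, so the 4 genes together were at the background. By gene they were 27 of 30 (90%, 73.5 to 97.9) for ESR1, 12 of 26 (46.2%, 26.6 to 66.6) for GREB1 and 3 of 4 for NRIP1. The ESR1 interval lay above the background share and the GREB1 interval below it, at the deposited threshold and list lengths, though sites of 1 gene are not independent. When each list was limited to scores of 200 or more, both intervals covered the background of 76.3%: 15 of 17 sites (88.2%, 63.6 to 98.5) near ESR1 and 15 of 23 (65.2%, 42.7 to 83.6) near GREB1 were PR-only. With the hormone lists cut to equal length, 12 of 15 ESR1 sites (80%, 51.9 to 95.7) were PR-only, against 51.3% of all sites. The lower end of that interval lay barely above the share of all sites. The interval of the 6 of 18 GREB1 sites (33.3%, 13.3 to 59.0) covered that share. PR was called in both lines at 17 of the 42, against 34.6% of all PR-only sites. At 21 of the 42 it was called in MTVL cells alone, against 18746 of all 33136 PR-only sites. GR was not mapped in MTVL cells, so those sites do not show PR without GR in the same cells. PR-only sites scored lower than sites with GR: the A1-2 PR median was 280 over 21 PR-only sites and 1528 over 17 sites with GR, and over all sites it was 172 and 454. In the MTVL list the medians were 367 over 38 PR-only sites and 2177 over 18 sites with GR, and over all sites 244 and 777. A missing GR peak means that none passed the authors' threshold, at a depth that is unknown.

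**Figure D4:**
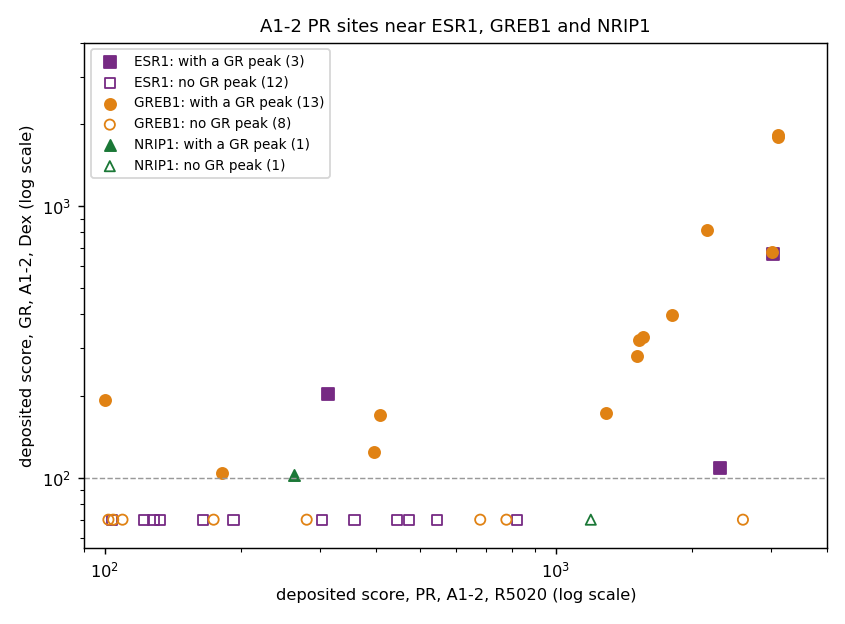
GR score after Dex (vertical, log axis) against PR score after R5020 (horizontal, log axis) at each site with an A1-2 PR peak, by gene; open symbols below the dashed line, the lowest deposited score of 100, are sites with no GR peak and have no vertical value. All sites with a PR score above 1000 carry a GR peak except the GREB1 site at 2598 and the NRIP1 site at 1195.

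Where a GR and a PR peak overlapped in A1-2 cells, the peaks lay close together, which the overlap rule partly builds in. Their midpoints were a median of 43.0 bp apart and at most 158 bp, against a median of 39.5 bp over the whole list. Across the 17 overlapping pairs near the 4 genes, Spearman's correlation of the GR and PR scores was 0.78, and over the 13 pairs near GREB1 it was 0.94, while over all 13614 pairs it was 0.53. These are descriptions across peaks of the same 2 libraries, and peaks near a gene are not independent.

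The lines were compared for PR after R5020. Of 39 A1-2 PR peaks, 35 (89.7%, 75.8 to 97.1) overlapped an MTVL PR peak, against 82.7% of the list, and the 4 without one were all near ESR1. Of 56 MTVL PR peaks, 34 (60.7%, 46.8 to 73.5) overlapped an A1-2 PR peak, against 53.8%. Near ESR1 this was 11 of 26 (42.3%, 23.4 to 63.1) and near GREB1 21 of 26 (80.8%, 60.6 to 93.4). The chromosome-wide shares were 50.4% on chromosome 6 and 50.7% on chromosome 2. At the deposited threshold the ESR1 interval covered its chromosome's share and the GREB1 interval lay above. Within each score band the GREB1 interval covered the chromosome 2 share. The GREB1 values were 2 of 3 (9.43 to 99.2, against 22.6%) under 200 and 7 of 11 (30.8 to 89.1, against 55.9%) from 200 to under 1000. At 1000 or more they were 12 of 12 (73.5 to 100, against 91.3%). The ESR1 peaks of MTVL cells that A1-2 cells shared had a median score of 787, and the unshared ones 186. By score, 2 of 12 MTVL peaks (16.7%) under 200 were shared, 13 of 24 (54.2%) from 200 to under 1000 and 19 of 20 (95%) at 1000 or more, against 25.5%, 56.8% and 93.3% over the list. All 18 GR peaks near the 4 genes (exact 95% interval 81.5 to 100) overlapped an MTVL PR peak, against 69.3% of all GR Dex peaks. Of these, 14 lay near GREB1, and peaks near a gene are not independent. From a score of 200 up, the members' intervals covered the list's share. Under 200 the interval lay above it (8 of 8, 63.1 to 100, against 57.7%).

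Peaks near these genes came almost entirely from the GR Dex list and the 2 PR lists after R5020. These held 18 GR peaks, 39 A1-2 PR peaks and 56 MTVL PR peaks, the GR list after R5020 held 0, and the untreated lists held 0 GR peaks and 2 PR peaks, both of MTVL cells and both at GREB1. The untreated lists are short over the whole genome too, with 455 GR peaks, 693 A1-2 PR peaks and 221 MTVL PR peaks. The 2 untreated MTVL PR peaks at GREB1 were nevertheless more than the background. At the mean density of that list the GREB1 window would hold 0.0155. With 1 library and no MTVL input used, this describes the window and tests nothing. The GR list after R5020 has a mean of 0.403 peaks per Mb over the genome, and the 4 windows cover 1.03 Mb, so an empty result there is near the background. Its nearest peak to GREB1, chr2:11622427-11623334, scored 841 and lay 50.9 kb upstream, just beyond the limit. The MTVL PR peak just outside the GREB1 limit, chr2:11623168-11624089 at 50.2 kb, scored 189 and overlapped it, and the peak just inside, 45.5 kb away, scored 676. For ESR1 the outermost member lay 28.6 kb upstream and the next peak 55.8 kb away, and for NRIP1 the next peak was 51.1 kb from the gene body.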

How the data were processed

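GR was precipitated from A1-2 cells and PR from A1-2 and MTVL cells, 1 library per condition, beside an A1-2 input, per the labels. Hg19 is the build, and MACS 1.4.2, Bowtie 1.1.1 and bedtools are the tools, listed in the submitters' processing notes. Settings, control library and read depth were not given in the sources used here. Every deposited file lists the peaks of 1 library with the authors' score, read here as -10 × log10(p), as MACS writes it, because no score is under 100. Scores of 3100 and above were not read as a ranking, except in the Spearman correlations, which used all scores as listed.

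Peaks outside chromosomes 1 to 22 and X, or overlapping an input peak, were left out, which removed none of the 115 member peaks. No MTVL input was used here. Overlap meant at least 1 bp, and a site with several peaks of a list took its highest score. Densities are per Mb between the outermost peaks of each chromosome. Positions count from 1, and distances from a gene start run to the midpoint of a site. The strands of ESR1 and NRIP1 come from RefSeq promoters and those of GREB1 and TFF1 from general knowledge. Exons and introns were not analysed here. Shares have exact Clopper-Pearson 95% intervals, computed with Python 3.11.15, numpy 2.4.6 and scipy 1.17.1, and plots were drawn with matplotlib 3.10.9. The code for overlaps, sites and windows was tested on simulated peak lists. Named sites are, per gene, up to 5 of highest score in each hormone list and those with an untreated peak. Also named are those PR-only in both lines, those without an MTVL PR peak and the one nearest the gene start. Outside this rule, the ESR1 site at chr6:152135783-152136476 was picked later, as marked. The GREB1 site at chr2:11738532-11739087 is named as the GR peak without an A1-2 PR peak. Ties at 3100 were all named for GREB1. Alternatives were a higher score minimum, input peaks kept, other overlap rules, lists of equal length and other windows. The members and lists were chosen with earlier results of these data known.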

Additional observations from a re-analysis of the deposited data

How the results depend on the processing

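The number of sites, the number of PR-only sites and the shares of MTVL PR peaks at A1-2 PR peaks and of A1-2 PR peaks at GR peaks were recomputed under 8 alternatives each, and 29 of the 32 values stayed within 1.5 times the reported count or within the reported share's interval. Within those limits the sites ranged from 44 to 74, the PR-only sites from 29 to 53, the MTVL share from 56.5% to 62.2% and the share at GR peaks from 37.0% to 55.2%. With the hormone lists cut to equal length by score, the sites fell to 38 and the PR-only sites to 20. The share of MTVL PR peaks at an A1-2 PR peak became 75.9% at equal length, while a score minimum of 200 gave 59.1%. Why the values moved at equal length was not tested. The PR-only share near ESR1 kept its interval above the share of all sites except at a score minimum of 200 (88.2% against 76.3%). The GREB1 interval lay below it except at that minimum (65.2% against 76.3%) and at equal length (33.3% against 51.3%). A score minimum of 200 left 17 ESR1 sites, equal length 15. A window of 100 kb gave TFF1 1 site and NRIP1 8. No paired analysis was possible because each condition has 1 library. The lists hold only peaks past a threshold, so a missing peak sets no limit on binding, and the PR lists are longer than the GR list, which bears on every PR-only count.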

Other observations

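NRIP1 had a further group of peaks beyond its window, noticed after its values were seen. Upstream of the gene, a GR peak after Dex at chr21:16583883-16584398 scored 376 and lay 147 kb from the gene body, and an A1-2 PR peak at chr21:16583729-16584306 overlapped it with a score of 1240. The nearest PR peak of untreated MTVL cells, chr21:16582124-16583236, lay 145 kb from NRIP1 with a score of 109. Also noticed after the values were seen were overlapping PR peaks of both lines, downstream of ESR1 at 64.9 kb from the gene body. They scored 426 in A1-2 cells and 1478 in MTVL cells, and they are not thereby assigned to ESR1.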
